A study of Oryza sativa with 18 samples.

Results

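Genes for the transport and metabolism of nitrogen compounds were followed during germination in rice (Oryza sativa) embryos, in a wild type line named 9522 and in the csa mutant, sampled 3 h, 6 h and 12 h into imbibition (the taking up of water with which germination begins). The members are the listed genes whose annotation text names amino acids, peptide transporters (PTR2 included), nitrate, ammonium, glutamine, glutamate, asparagine, aminotransferases or proline. Proline-rich and hydroxyproline-rich proteins were left out. The rule also leaves out the start of chromosome 1, where it found 0 entries. It gave 54 of the 3149 genes that the 3 deposited tables list: 37 transporter genes, 14 enzyme genes, 2 glutamate receptor genes and 1 gene for a glutamate binding protein. A gene appears in a table only if the authors called it, with a false discovery rate (FDR) of 0.05 and an absolute log2 fold change of at least 1. Every member was therefore called at 1 or more times, and the members' folds and FDR values describe genes that were listed because of them.

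RNA sequencing was done on total RNA extracted from 5 seeds per sample, with 3 samples for each of the 6 combinations of genotype and time and 18 in all. No treatment beyond imbibition in the same medium is labelled in either genotype, and the tissue is given as embryo, although the extraction protocol speaks of seeds. The gene CSA, short for CARBON STARVED ANTHER, codes for a MYB-type regulator of transcription that is best known from the supply of sugar to anthers. The labels name 1 mutant line and do not describe its allele, nor do they say whether replicates are separate biological material. The p-values therefore measure sample-to-sample spread that may be purely technical. The CSA gene itself (LOC_Os01g16810) was listed at 6 h, with raw counts of 92, 81 and 201 in mutant libraries and 310, 305 and 380 in wild type ones. All 3 mutant values lay below the wild type values, and at 3 h and 12 h the gene was not listed. Recovered library scaling factors lay between 0.917 and 1.11, and totals over all genes were not analysed here. The libraries farthest from their own group over the listed genes were csa replicate 2 at 3 h, csa replicate 3 at 6 h and csa replicate 2 at 12 h. Embryo marker genes that were listed (oleosins, the early-methionine protein EM1 and an embryo globulin) numbered 6 at 3 h and 5 at 6 h. All of these markers were higher in csa, beside 71.0% of all entries at 3 h and 58.4% at 6 h. Their summed scaled counts ranged from 50338 to 94262 in csa and from 27393 to 31769 in wild type at 3 h, and from 37286 to 47662 and from 15372 to 21773 at 6 h.

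A germinating cereal embryo lives on nitrogen stored as protein. Proteases release peptides and amino acids from storage protein, and carriers in the plasma membrane of the scutellum and the growing axis take them up. Amino acid permeases move single amino acids, PTR2-type carriers move small peptides or, in other members of the same family, nitrate, and oligopeptide transporters move longer peptides or, in the yellow stripe-like (YSL) branch, metals bound to nicotianamine. Ammonium is fixed by glutamine synthetase into glutamine, asparagine synthetase passes the amide group on to asparagine for storage and transport, aminotransferases exchange amino groups among amino acids, and proline oxidase starts the breakdown of proline.

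The main pattern lay at 6 h, where transporter genes were mostly lower in csa and enzyme genes were split. Of 29 transporter members listed at 6 h, 22 were lower and 7 higher in csa, so 75.9% were lower. Enzyme members at 6 h numbered 7 lower and 6 higher. Over all 2388 entries listed at 6 h the share lower in csa was 41.6%. The median log2 ratio of csa over wild type, from mean scaled counts, was -1.46 over the transporter members against 1.11 over all listed entries. Since listing needs an absolute log2 fold change of at least 1, each median falls on the side with more entries. The gap between the medians therefore mostly restates the shares and is no measure of size. At 3 h 12 members were higher and 7 lower, so 36.8% were lower beside 29.0% of all 1050 entries of that time, and 6 of 14 transporter members were lower. When TMM scaling factors were computed on the listed genes alone, the median log2 ratio of all entries moved by -1.24 at 3 h and -0.58 at 6 h. At 3 h 1 of the 12 higher calls was kept (LOC_Os01g68050) and 5 of the 12 took a negative sign. That made 5 of 19 members with a changed sign, beside 259 of all 1049 refitted entries (24.7%). At 6 h 0 members and 0 of all 2388 entries changed sign, and 7 of 14 higher calls and all 30 lower calls were kept. A shift of about -0.58 cannot turn a ratio of at least 1 in size, and it moves lower calls further down. The unchanged signs and the kept lower calls were thus largely fixed in advance. Higher calls lost or turned under these factors, here and for single genes below, follow from the shift and do not test the gene. The higher calls not kept at 6 h were LOC_Os03g12890, LOC_Os10g40360, LOC_Os03g18130, LOC_Os05g39770, LOC_Os04g45950, LOC_Os02g09810 and LOC_Os10g08850. Outcomes under these factors are repeated below for some genes only. Of all entries, 32.9% were kept at 3 h and 59.8% at 6 h. No member was listed at 12 h, where 85 genes were listed in all. The authors' calls took in 4.91% of the genes tested at 3 h (3.49% higher, 1.42% lower in csa), 10.3% at 6 h (6.03% higher, 4.30% lower) and 0.400% at 12 h. Genes with this annotation that were not called are not analysed here, so the share of the gene class that was called is not known. In bulk RNA, fewer cells of a type and less RNA per cell cannot be told apart.

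**Figure D1:**
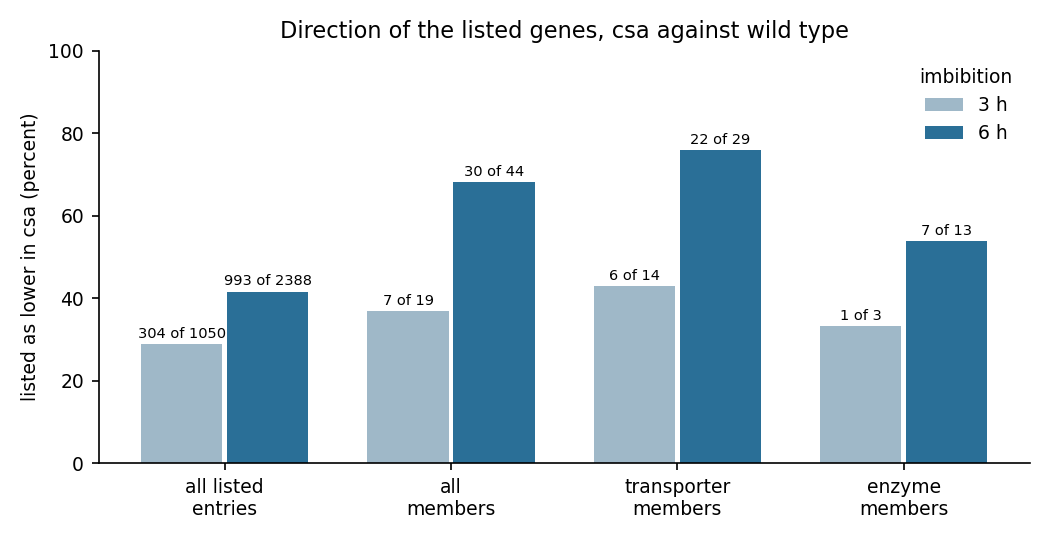
Share of listed genes that were lower in csa (percent, y axis) at 3 h and 6 h of imbibition, for all listed entries and for the members as a whole, the transporter members and the enzyme members, with the counts written above each bar. The share of transporter members that were lower was 75.9% at 6 h, above the 41.6% of all listed entries at that time.

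These counts depended on single libraries to different degrees. When the listed genes were refitted with edgeR's quasi-likelihood test, 21 of the 22 lower transporters of 6 h were kept with all libraries and at least 15 without any 1 library, the 15 being without wild type replicate 3. The 7 lower enzymes of 6 h were all kept with all libraries and 0 once csa replicate 3, the most distant csa library of 6 h, was left out. That fit kept 70.9% of all entries of 6 h, and the fit without wild type replicate 3 kept 78.4%. Among the 22 lower transporters, csa replicate 3 held the lowest csa value for 14, 63.6%, beside 66.1% of all entries lower at 6 h. Wild type replicate 3 held the highest wild type value for 11 of the 22, beside 39.2% of all lower entries. At 3 h the refit kept all 19 member entries, but it kept 10 without csa replicate 1, 8 without csa replicate 2 and 10 without wild type replicate 3. Of all entries of 3 h, 95.9% were kept with all libraries and 72.8%, 62.4% and 65.1% in those 3 fits.

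The listed genes also held markers of endosperm, the storage tissue next to the embryo. All listed glutelin and prolamin genes, 4 at 3 h, 2 at 6 h and 1 at 12 h, were higher in csa. Of all entries, 71.0% at 3 h, 58.4% at 6 h and 45 of 85 at 12 h were higher. Their summed scaled counts ranged from 5117 to 6674 in csa and from 2121 to 2587 in wild type at 3 h, and from 320 to 515 and from 164 to 208 at 6 h. The gene listed at 12 h ranged from 1708 to 4033 in csa and from 460 to 1017 in wild type. Alpha-amylase genes were counted as a separate set, for the breakdown of reserves, and not as markers of endosperm. Those listed, 4 at 3 h and 2 at 6 h, were likewise all higher in csa. Their sums were 1044 to 6131 against 245 to 622 at 3 h and 185 to 359 against 34.5 to 64.7 at 6 h. For each of these sums the genotypes did not overlap. The part of these differences in the members' values was not tested.

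Amino acid carriers made up the largest group, with 12 listed at 6 h, 9 of them lower in csa, beside 41.6% of all entries. The transporter groups were formed by annotation terms after values were seen. A gene for a cationic amino acid transporter (LOC_Os01g11160), a carrier of basic amino acids, had raw counts of 75, 76 and 72 in mutant libraries and 281, 380 and 581 in wild type ones at 6 h. The csa values were nearly equal, the wild type values spread more widely, and the genotypes did not overlap. Scaled counts averaged 75.7 ± 5.94 for csa and 402 ± 120 for wild type (mean ± SD, n = 3), a log2 ratio of -2.41 ± 0.26 (errors of log2 ratios are standard errors, n = 3 per genotype). The authors' deposited table gave it an FDR of 7.33e-16. The call was kept in the edgeR refit without any single library. Non-overlap of the genotypes was the rule in these tables, with 97.2% of all entries at 6 h and 96.1% at 3 h, and it is given for single genes as a description.

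Several amino acid transporter genes with a transmembrane domain annotation showed the same direction at 6 h. For LOC_Os12g08130 the raw counts were 70, 33 and 48 in mutant libraries and 137, 191 and 353 in wild type ones, with a log2 ratio of -2.10 ± 0.47. Its neighbour LOC_Os12g08090, annotated as an amino acid carrier, had 73, 48 and 72 against 153, 140 and 293, at -1.53 ± 0.34. These genes stand next to each other in the RefSeq gene order of chromosome 12, both were lowest in csa replicate 2, and both were highest in wild type replicate 3. LOC_Os01g63770 had 89, 73 and 63 in csa against 203, 212 and 279 in wild type, at -1.56 ± 0.20. LOC_Os04g47420 stood at -1.91 ± 0.47 and the amino acid permease 1-like gene LOC_Os06g36210 at -1.39 ± 0.25. LOC_Os08g03350, the listed amino acid carrier with the highest counts, had 1524, 1064 and 499 in mutant libraries and 2356, 3706 and 4351 in wild type ones, at -1.68 ± 0.49. All of these calls were kept in the edgeR refit without any single library. LOC_Os12g08090, LOC_Os04g47420, LOC_Os06g36210 and LOC_Os08g03350 fall outside the naming rule and were added after their values were seen, to complete the group.

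The lowest amino acid carrier by ratio rested on 1 library. LOC_Os01g66010, annotated as an amino acid carrier, had raw counts of 1, 1 and 3 in mutant libraries and 5, 5 and 43 in wild type ones at 6 h. Its log2 ratio of -3.30 ± 1.12 moved to -1.64 without wild type replicate 3, and the edgeR refit then did not keep the call. LOC_Os12g06060, also named after its values were seen, was near this level, with 9, 3 and 15 in mutant libraries and 20, 17 and 48 in wild type ones and an FDR of 0.0447 in the authors' deposited table, and its call was lost in the DESeq2 refit and without csa replicate 1 or 2 or wild type replicate 1 or 3.

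The 3 amino acid carriers that were higher in csa at 6 h differed in level. LOC_Os02g09810, an amino acid transporter-like gene, had raw counts of 738, 540 and 793 in mutant libraries and 232, 273 and 291 in wild type ones, with a log2 ratio of 1.42 ± 0.16. The genotypes lay far apart beside the spread within each, and the call was kept without any single library. The amino acid permease-like gene LOC_Os04g12499 had low counts, 20, 19 and 37 against 2, 6 and 2, at 2.92 ± 0.69. LOC_Os04g45950, of the amino acid/polyamine transporter family, had 36, 34 and 32 against 16, 14 and 18, at 1.14 ± 0.10. That last call was kept in the edgeR refit with all libraries, was not kept by the DESeq2 refit and was lost on leaving out any 1 library other than csa replicate 3, with log2 ratios of 1.08 to 1.17 in those fits.

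At 3 h 5 of 7 amino acid carriers were higher in csa, beside 71.0% of all entries of that time, and of these 5 LOC_Os11g09020 and LOC_Os04g45950 took a negative sign with TMM factors from the listed genes. PUT1 (LOC_Os02g47210), a polyamine uptake transporter of the amino acid/polyamine family, had raw counts of 653, 785 and 1094 in mutant libraries and 325, 319 and 409 in wild type ones. Scaled counts averaged 866 ± 228 for csa and 342 ± 46.1 for wild type (mean ± SD, n = 3), with a log2 ratio of 1.34 ± 0.25 and an FDR of 1.95e-08 in the authors' deposited table. Every csa library lay above every wild type library, and the call was kept without any single library. With TMM factors from the listed genes the log2 ratio was 0.12 and the call was not kept. Those factors moved the median of all entries by -1.24, so this loss follows from the shift. LOC_Os11g09020, an amino acid carrier, had 82, 181 and 71 against 53, 52 and 40, at 1.29 ± 0.50, and without csa replicate 2 it stood at 0.71 and was not kept. It was also not kept without wild type replicate 3, at 1.16. LOC_Os04g45950 was higher here as at 6 h, with 48, 88 and 41 against 23, 31 and 23, at 1.29 ± 0.41. Without csa replicate 2, wild type replicate 1 or wild type replicate 3 its call was not kept, at 0.85, 1.23 and 1.21. LOC_Os04g39489, outside the naming rule and added after its values were seen, had 21, 27 and 14 against 9, 4 and 4.

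Counting noise limits the carrier with the largest ratio at 3 h. LOC_Os01g68050, an amino acid transporter gene, had 18, 14 and 16 raw counts in mutant libraries against 1, 2 and 0 in wild type ones. The ratio of the summed counts was 16 with an exact 95% interval of 5.16 to 80.3, which covers counting error only.

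The amino acid carriers that were lower at 3 h were not listed at 6 h. LOC_Os01g61044 had raw counts of 99, 57 and 266 in mutant libraries and 400, 598 and 550 in wild type ones at 3 h, with a log2 ratio of -1.81 ± 0.67. LOC_Os01g65670 had 614, 407 and 1219 against 1759, 1844 and 1977, at -1.25 ± 0.46, and its FDR of 0.0475 in the authors' deposited table lay just inside the threshold. In both genes csa replicate 3 was the highest mutant library, although it stayed below the wild type libraries. The refit did not keep LOC_Os01g61044 without csa replicate 1, at -1.61, nor LOC_Os01g65670 without csa replicate 1 or csa replicate 2, at -1.12 and -0.97.

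**Figure D2:**
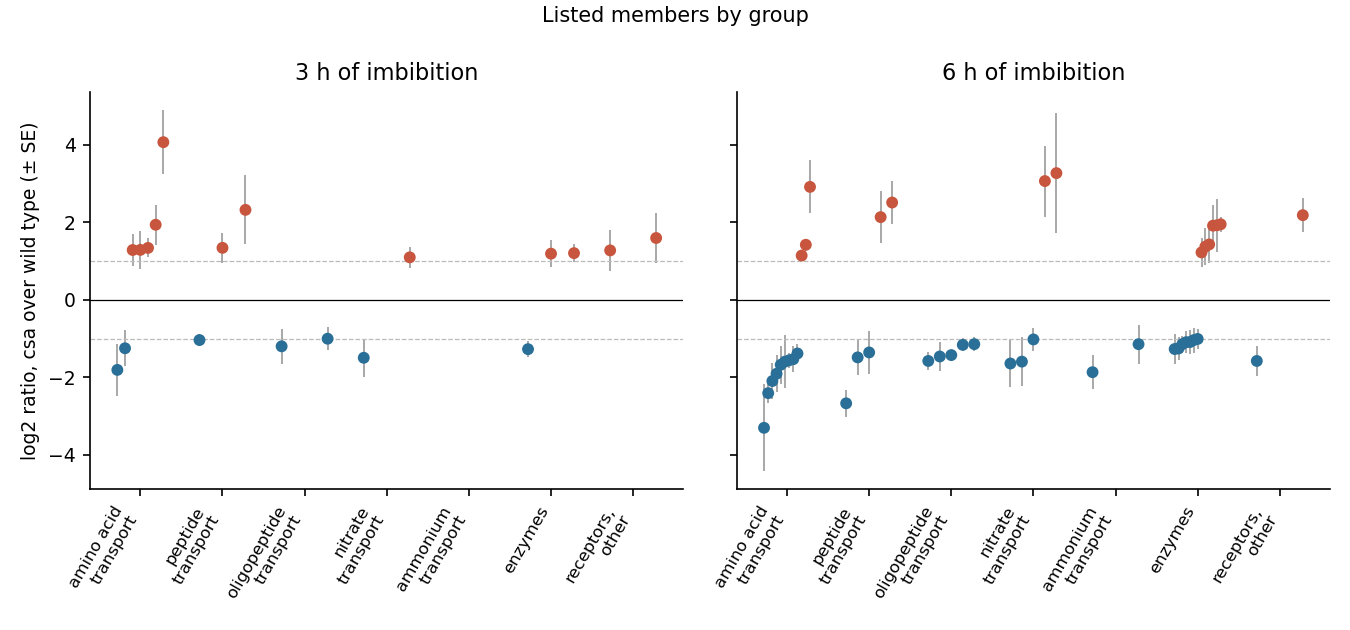
Log2 ratio of csa over wild type with its standard error (y axis, n = 3 per genotype) for every member listed at 3 h (left) and 6 h (right), by transporter group, enzymes, and receptors with the other gene. Orange points are higher and blue points lower in csa, and dashed lines mark the listing threshold of 1. At 6 h all 5 oligopeptide and both ammonium transporter points lie below 0, beside 41.6% of all listed entries.

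Among the peptide transporters, 3 were lower and 2 higher in csa at 6 h, beside 41.6% lower of all entries. Of these genes, 1 was listed in opposite directions at 3 h and 6 h. LOC_Os01g67630, a PTR2-type peptide transporter gene, had raw counts of 167, 141 and 69 in mutant libraries and 41, 65 and 51 in wild type ones at 3 h. At 6 h it had 114, 165 and 105 in mutant libraries and 800, 1041 and 673 in wild type ones. The csa counts were of similar size in both tables, while the wild type counts were low at 3 h and high at 6 h, although the tables were scaled separately and levels across them are only set side by side. At 6 h scaled counts averaged 131 ± 38.2 for csa and 835 ± 242 for wild type (mean ± SD, n = 3), a 6.37-fold difference with an FDR of 3.79e-17 in the authors' deposited table. From a log2 ratio of 1.34 ± 0.38 at 3 h it went to -2.67 ± 0.34 at 6 h, where the call was kept without any single library. The 3 h call was not kept without csa replicate 1, at 1.10, or without wild type replicate 1, at 1.21. Nor was it kept with TMM factors from the listed genes, which lower all ratios, at 0.11.

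The other peptide transporters differed in both directions. LOC_Os01g65110, annotated as PTR2-B, was higher in csa at both times, with 17, 17 and 13 raw counts against 0, 3 and 7 at 3 h and 29, 26 and 52 against 7, 14 and 3 at 6 h. The log2 ratios were 2.32 ± 0.89 and 2.14 ± 0.68, and at 3 h the call was not kept without csa replicate 1, at 2.28, or wild type replicate 1, at 1.74. LOC_Os05g34030 was higher at 6 h from low counts, 9, 20 and 14 against 3, 1 and 4. Lower at 6 h were LOC_Os05g35650 at -1.49 ± 0.45 and LOC_Os10g33210 at -1.36 ± 0.56, both outside the naming rule and named after their values were seen. In LOC_Os10g33210 wild type replicate 3 held 715 counts against 189 and 249 in the other wild type libraries, and the call was not kept without it, nor without csa replicate 3. LOC_Os12g44100 was lower at 3 h only among the listed times, with 66, 48 and 55 against 105, 129 and 131, at -1.04 ± 0.14, near the threshold. It was kept without csa replicate 1 or 3 and not without any of the other 4 libraries, where it stood between -1.12 and -0.95.

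Every listed oligopeptide transporter gene was lower in csa, 2 at 3 h and 5 at 6 h, beside 29.0% and 41.6% of all entries. This group holds YSL genes, which are known for carrying metal chelates of nicotianamine rather than peptides. YSL12 (LOC_Os04g44320) had raw counts of 710, 458 and 911 in mutant libraries and 1501, 1196 and 1670 in wild type ones at 3 h, and of 1362, 1038 and 1132 against 2769, 4275 and 3838 at 6 h. At both times the highest csa library lay below the lowest wild type library. The log2 ratios were -1.004 ± 0.29 at 3 h, at the threshold, and -1.58 ± 0.24 at 6 h. The call at 6 h was kept without any single library, and the call at 3 h was lost without csa replicate 1 or 2 or wild type replicate 1 or 3, at -1.01 to -0.79.

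The oligopeptide transporter 4-like genes LOC_Os02g46850 and LOC_Os02g46860 have neighbouring numbers on chromosome 2. LOC_Os02g46860 had 156, 127 and 121 raw counts in csa and 319, 535 and 281 in wild type at 6 h, at -1.46 ± 0.38, and LOC_Os02g46850 had 426, 338 and 383 against 786, 984 and 872, at -1.16 ± 0.17. Both calls at 6 h were kept without any single library. LOC_Os02g46860 was also lower at 3 h, with 88, 27 and 58 against 135, 116 and 164, at -1.20 ± 0.45, a call not kept without csa replicate 2, at -0.87, or wild type replicate 3, at -1.07. YSL13 (LOC_Os04g44300), which stands next to YSL12 in the RefSeq gene order of chromosome 4, had 10, 8 and 12 counts against 28, 25 and 30 at 6 h. YSL5 (LOC_Os04g32060) had 28, 30 and 21 against 57, 58 and 67. Neither call held in every fit, YSL13 being lost without csa replicate 1 or 2 and YSL5 without csa replicate 1 or 3 or wild type replicate 2. YSL13 and YSL5 lie outside the naming rule and were added after their values were seen. The sources used here do not say how reads common to close copies were counted, so values of neighbouring copies may not be independent.

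Nitrate transport genes went both ways. NRT2.3 (LOC_Os01g50820), a high-affinity nitrate transporter that the table annotates as similar to NRT2.5, had raw counts of 103, 76 and 111 in mutant libraries and 159, 194 and 614 in wild type ones at 6 h. The genotypes did not overlap, but wild type replicate 3 was far above the other wild type libraries. Its log2 ratio of -1.64 ± 0.60 moved to -0.89 without that library, and the call was then not kept. NAR2.2 (LOC_Os04g40410), annotated as an activating partner protein of high-affinity nitrate transporters, was lower at both times. It had 16, 23 and 28 counts against 103, 56 and 39 at 3 h and 28, 22 and 13 against 29, 53 and 123 at 6 h. The log2 ratios were -1.50 ± 0.49 and -1.60 ± 0.62. At 3 h the call was not kept without csa replicate 1, at -1.30, or wild type replicate 1, at -0.999, and at 6 h not without csa replicate 3, at -1.32, or wild type replicate 3, at -0.97.

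The related partner gene NAR2.1 (LOC_Os02g38230) was at the edge of detection. It had 7, 6 and 12 raw counts in csa and 0, 2 and 1 in wild type at 6 h, with a ratio of summed counts of 8.33 and an exact 95% interval of 2.54 to 43.1 for counting error. LOC_Os10g08850, annotated as a nitrate and chloride transporter, had 3, 15 and 21 against 4, 0 and 0, and its genotypes overlapped. Without csa replicate 3 or wild type replicate 2 that call was not kept, at 2.81 and 2.69. Another gene with the same annotation, LOC_Os03g58580, named after its values were seen, was lower at -1.02 ± 0.29, just inside the threshold, and was kept only without wild type replicate 1 among the fits that leave out 1 library. LOC_Os06g38294, similar to the nitrate transporter NTL1, was higher at 3 h, with 596, 824 and 473 counts against 333, 316 and 286, at 1.10 ± 0.27, with a negative sign under TMM factors from the listed genes. It was not kept without csa replicate 2, at 0.83, or wild type replicate 3, at 1.03.

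Both listed ammonium transporter genes were lower in csa at 6 h, beside 41.6% of all entries. AMT1-1 (LOC_Os04g43070), a plasma membrane ammonium transporter, had raw counts of 481, 424 and 192 in mutant libraries and 989, 1655 and 1549 in wild type ones. All csa libraries lay below all wild type libraries. Scaled counts averaged 377 ± 169 for csa and 1376 ± 367 for wild type (mean ± SD, n = 3), with a log2 ratio of -1.87 ± 0.44 and an FDR of 3.25e-06 in the authors' deposited table, and the call was kept without any single library. AMT3-2 (LOC_Os03g62200), outside the naming rule, had 53, 38 and 16 counts against 57, 94 and 98, at -1.15 ± 0.50. AMT3-2 was the single member entry, of 63 over both times, that the edgeR refit with all libraries did not keep, and the DESeq2 refit did not keep it either.

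The enzymes of nitrogen assimilation at 6 h did not share a direction. GLN1-1 (LOC_Os02g50240), a cytosolic glutamine synthetase, had raw counts of 3001, 2791 and 2113 in mutant libraries and 5188, 6595 and 6344 in wild type ones. Scaled counts averaged 2695 ± 590 for csa and 5955 ± 855 for wild type (mean ± SD, n = 3), a log2 ratio of -1.14 ± 0.22 and an FDR of 6.42e-06 in the authors' deposited table. The genotypes did not overlap, yet the call was not kept without csa replicate 2, csa replicate 3 or wild type replicate 2, where the ratio was -1.21, -0.97 and -1.02. An asparagine synthetase gene (LOC_Os03g18130) was higher, with 111, 121 and 259 counts in csa and 60, 36 and 93 in wild type, at 1.43 ± 0.49. Without csa replicate 3, its highest library, it stood at 1.00 and was not kept, nor was it without wild type replicate 1 or 2, at 1.43 and 1.18. A gene with an NAD-specific glutamate dehydrogenase domain (LOC_Os06g28800), a domain of enzymes that interconvert glutamate and 2-oxoglutarate with release or binding of ammonium, had 55, 22 and 82 against 19, 9 and 15, at 1.91 ± 0.53. This call was kept without any single library.

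The other member listed in opposite directions belongs to proline metabolism. The proline oxidase gene LOC_Os10g40360 had raw counts of 368, 338 and 313 in mutant libraries and 1062, 700 and 825 in wild type ones at 3 h. At 6 h it had 136, 237 and 170 in mutant libraries and 108, 57 and 50 in wild type ones. All csa libraries lay below all wild type libraries at 3 h and above them at 6 h. The log2 ratio was -1.27 ± 0.20 at 3 h, with an FDR of 1.28e-08 in the authors' deposited table, and 1.37 ± 0.47 at 6 h, with an FDR of 0.00164. At 3 h the call was kept without any single library. At 6 h it was not kept without csa replicate 2, wild type replicate 2 or wild type replicate 3, at 1.09, 1.26 and 1.13. Nor was it kept with TMM factors from the listed genes, which lower all ratios, at 0.80. P5CS2 (LOC_Os01g62900), a delta 1-pyrroline-5-carboxylate synthetase that makes the precursor of proline from glutamate, was lower at 6 h, with 95, 113 and 104 against 188, 158 and 315. Its log2 ratio of -1.01 ± 0.26 lay just inside the threshold, and the call was not kept without any 1 of the csa libraries or without wild type replicate 3, at -1.10 to -0.75.

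Of 4 aminotransferase genes, 3 were higher in csa and 1 lower, beside 71.0% higher of all entries at 3 h and 58.4% at 6 h. LOC_Os03g12890, similar to a chloroplast branched-chain amino acid aminotransferase, was higher at both times, with 246, 294 and 157 against 116, 132 and 74 at 3 h and 90, 155 and 141 against 34, 55 and 84 at 6 h. The log2 ratios were nearly equal, 1.19 ± 0.35 and 1.22 ± 0.38, although the 3 h value took a negative sign under TMM factors from the listed genes and each call was lost on leaving out 3 of the 6 libraries in turn, at 0.96 to 1.17 and 0.97 to 1.25. Another branched-chain aminotransferase gene (LOC_Os03g01600) was lower at 6 h, with 32, 36 and 19 against 72, 76 and 68, at -1.26 ± 0.31. It was not kept without csa replicate 3 or wild type replicate 2, the latter at -1.17. An alanine:glyoxylate aminotransferase-like gene (LOC_Os05g39770) had 58, 65 and 90 against 18, 4 and 38 at 6 h, at 1.92 ± 0.68, and was not kept without wild type replicate 1, at 1.90. A nicotianamine aminotransferase A-like gene (LOC_Os02g19970) had 61, 73 and 70 against 20, 13 and 22, at 1.95 ± 0.19, and was kept without any single library. Nicotianamine aminotransferase is known in grasses for making iron-binding phytosiderophores rather than for general amino acid turnover.

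The first steps of arginine synthesis from glutamate were listed once each. An N-acetyl-glutamate synthase-like gene (LOC_Os03g31690) was higher at 3 h, with 270, 450 and 360 raw counts against 160, 165 and 170, at 1.21 ± 0.23, and with a negative sign under TMM factors from the listed genes. Without csa replicate 2 it stood at 0.99 and was not kept. An N-acetyl glutamate kinase gene (LOC_Os02g44000) was lower at 6 h, with 109, 114 and 71 against 178, 175 and 309, at -1.09 ± 0.32. It was not kept without csa replicate 3, at -0.87, or wild type replicate 3, at -0.85.

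The search terms also took in enzymes that act on proteins rather than free amino acids. All 3 were lower at 6 h, beside 41.6% of all entries. They were peptide:N-glycosidase genes, whose products cut sugar chains from asparagine residues (LOC_Os01g10930 at -1.04 ± 0.32 and LOC_Os01g10960 at -1.27 ± 0.39), and a prolyl endopeptidase gene (LOC_Os04g47360) at -1.09 ± 0.28. Each of the 3 calls was lost on leaving out any of 4 libraries in turn, csa replicate 3 among them in every case, and the DESeq2 refit did not keep LOC_Os01g10960. LOC_Os01g10960 lies outside the naming rule and was named after its values were seen. Without these genes, 4 of the enzyme members at 6 h were lower and 6 higher.

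Glutamate receptor-like genes, known in plants as amino acid-gated channels, were split. LOC_Os02g54640 was higher at both times, with 107, 132 and 39 raw counts against 56, 30 and 35 at 3 h, where the genotypes overlapped, and 57, 87 and 57 against 22, 9 and 15 at 6 h. The log2 ratios were 1.28 ± 0.54 and 2.19 ± 0.44. The 6 h call was kept without any single library, and the 3 h call was lost without csa replicate 1 or 2 or wild type replicate 2 or 3, at 0.90 to 1.18. LOC_Os06g46670, similar to glutamate receptor 3.4, was lower at 6 h, with 25, 27 and 11 against 58, 70 and 69, at -1.58 ± 0.39, and was kept without any single library. A glutamate binding protein gene (LOC_Os07g08060) was higher at 3 h, with 34, 55 and 29 against 24, 8 and 9, at 1.60 ± 0.64. It was not kept without csa replicate 1 or 2 or wild type replicate 2 or 3, at 1.25 to 1.70.

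**Figure D3:**
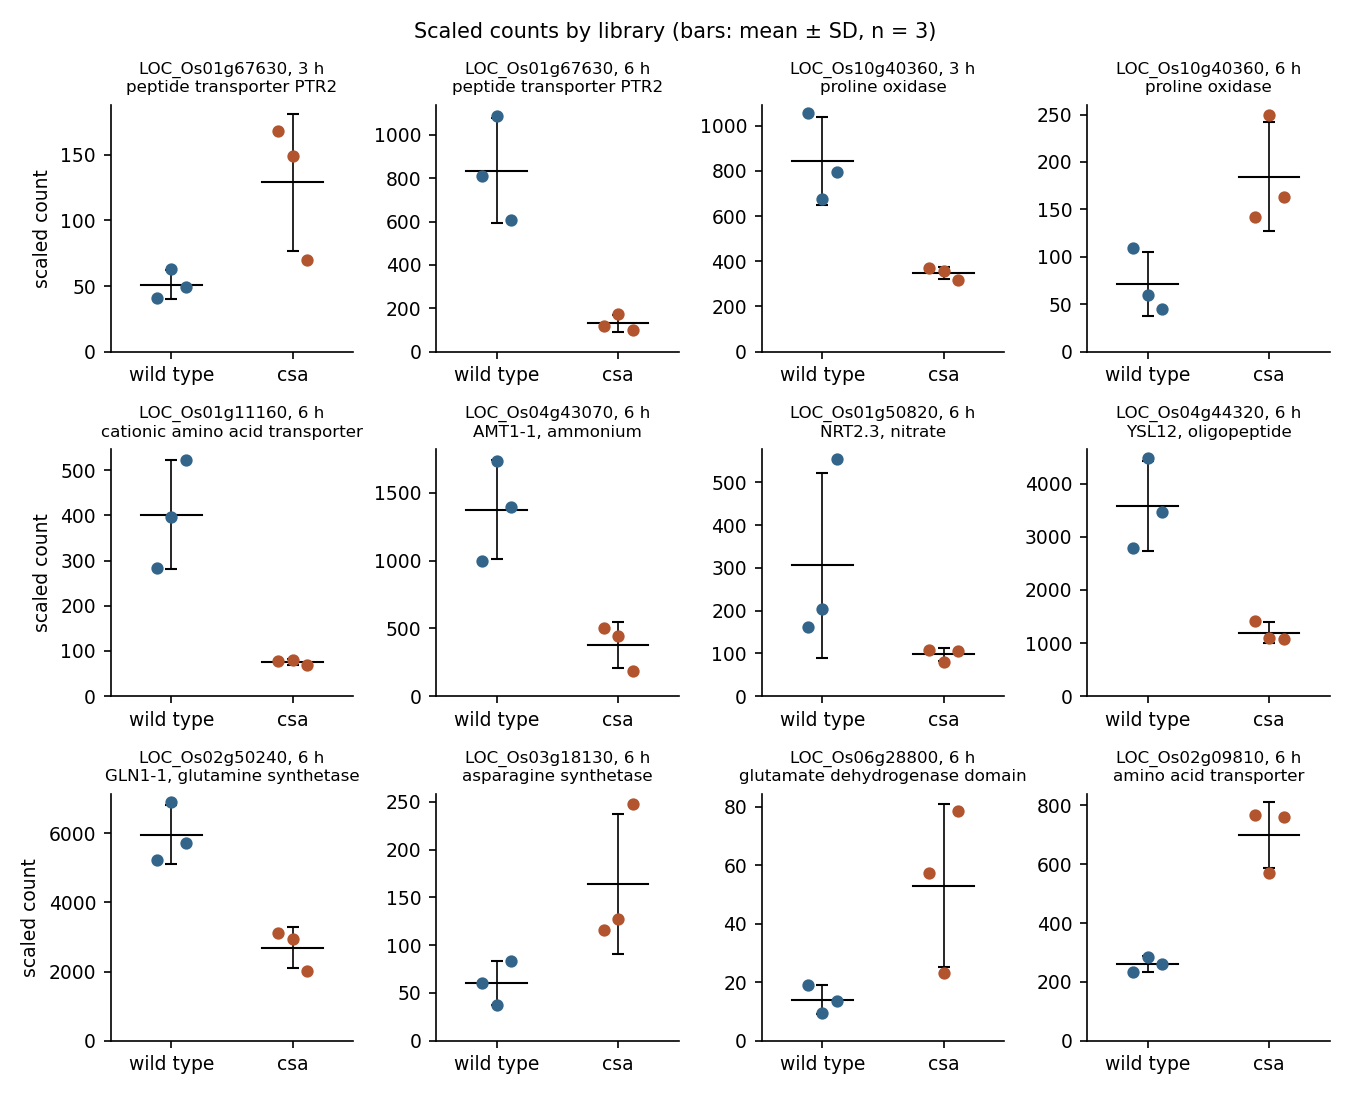
Scaled counts (raw counts divided by the recovered library factor, y axes from 0) in each wild type and csa library for 10 members in 12 panels. Points are libraries, and black bars give the mean ± SD (n = 3). In the upper row LOC_Os01g67630 and LOC_Os10g40360 switch which genotype is higher between 3 h and 6 h.

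Of the 54 members, 9 were listed at both 3 h and 6 h, 10 at 3 h only and 35 at 6 h only. Among the 9, 7 had the same direction at both times and 2 had opposite directions. The difference between the log2 ratios of 6 h and 3 h was tested as an interaction of genotype and time with edgeR's quasi-likelihood test over the 327 genes listed at both times, of which 57 (17.4%) passed an adjusted p of 0.05. For LOC_Os01g67630, the peptide transporter, the ratio at 6 h was lower than that at 3 h by a log2 difference of -4.01 (edgeR, Benjamini-Hochberg adjusted p = 7.22e-06). For LOC_Os10g40360, the proline oxidase, it was higher by 2.65 (edgeR, adjusted p = 2.65e-04). A gene listed in opposite directions differs by at least 2 on this scale through the listing itself, so these tests are not independent of how the genes came to be listed.

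The other 7 members listed at both times did not pass, with differences from -0.57 to 0.90 (edgeR, adjusted p of 0.412 or more). The largest of these was for the glutamate receptor gene LOC_Os02g54640, at 0.90, and the smallest for the branched-chain aminotransferase gene LOC_Os03g12890, at 0.03. Members listed at a single time have no values at the other, so whether their ratios differ between times was not tested.

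**Figure D4:**
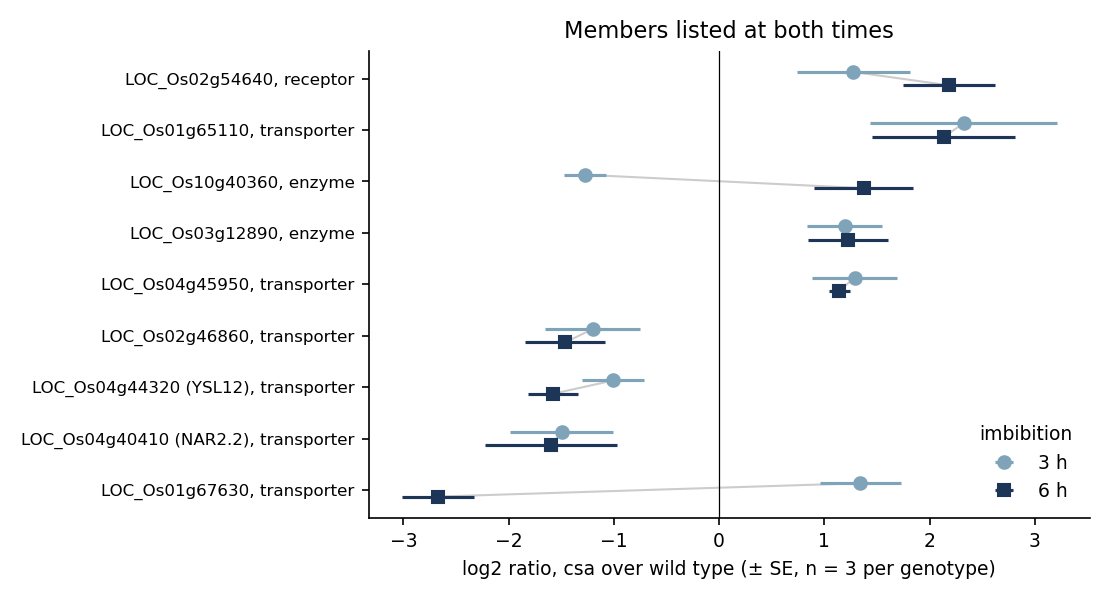
Log2 ratio of csa over wild type with its standard error (x axis) at 3 h (circles) and 6 h (squares) for the 9 members listed at both times (y axis). LOC_Os01g67630 goes from 1.34 to -2.67 and LOC_Os10g40360 from -1.27 to 1.37, while the other 7 keep their side of 0.

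A panel of 37 core nitrogen genes, chosen by identifier for nitrate uptake and reduction, ammonium transport, glutamine, glutamate and asparagine metabolism, amino acid permeases, peptide transporters and proline metabolism, had 10 genes listed at any time, 3 at 3 h and 8 at 6 h, beside 4.91% and 10.3% of all genes tested at those times. The panel was chosen with earlier results of these data known. How many of the 37 were tested is not known, so no enrichment is read from these counts. Members account for 8 of the 10 and are described above. The ferredoxin-nitrite reductase gene LOC_Os01g25484, which makes ammonium from nitrite in plastids, was higher in csa at 6 h, with 4516, 2638 and 3513 raw counts against 1798, 1676 and 1776, at 1.07 ± 0.23. LOC_Os01g48960 was lower at 3 h, with 3072, 1580 and 3645 against 5298, 5511 and 7111, at -1.04 ± 0.33. The panel holds it under glutamine, glutamate and asparagine metabolism. Its annotation reads non-protein coding transcript, so it is counted in the panel but no role is read from its value. Among the panel genes listed at 6 h, 4 were higher and 4 lower, beside 58.4% higher of all entries.

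Search terms for other amino acid metabolism outside the member rule found 8 entries at 3 h, 7 of them higher in csa, and 34 at 6 h, 21 higher and 13 lower, beside 71.0% and 58.4% higher of all entries. Serine/threonine protein kinases and phosphatases, caught by the word threonine, filled 5 and 25 of these entries. Of the entries left, 3 higher at 3 h and 7 higher and 2 lower at 6 h, several are no enzymes of amino acid metabolism either: a photosystem II psbY gene (LOC_Os08g02630, at both times), a histone-lysine methyltransferase (LOC_Os01g56540), a threonine endopeptidase (LOC_Os02g52260) and a gene with a twin arginine signal (LOC_Os03g31570) matched by a word alone, and the nitrite reductase gene above is counted again. No direction is therefore read from this list. An arginine decarboxylase gene (LOC_Os04g01690), for the first step from arginine to polyamines, was higher at both times, with 104, 90 and 160 raw counts against 13, 19 and 17 at 3 h and 59, 40 and 53 against 11, 8 and 22 at 6 h. The log2 ratios were 2.93 ± 0.29 and 1.97 ± 0.41. The 2 lower entries were methionine synthase genes with neighbouring numbers, LOC_Os12g42876 at -1.36 ± 0.28 and LOC_Os12g42884 at -1.08 ± 0.21. A chorismate mutase gene (LOC_Os12g38900), on the way to aromatic amino acids, was higher at 3 h, with 279, 255 and 264 against 119, 129 and 106, at 1.25 ± 0.09.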

How the data were processed

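For each time the authors deposited 1 table of called genes, which holds raw counts by library beside the log2 fold change, p-value and FDR of the authors' test, per the file headers. The submitters' processing notes name DESeq2 and give no version. The sources used here do not give the aligner, counter, strand setting or build. All numeric columns were matched to samples by name (0 left over). One 12 h sample carries a wild type title and description but a mutant entry under genotype, and was grouped by the former.

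Library factors were solved for from the deposited log2 fold changes (residual SD 0.000569, 0.00138 and 0.00150 at 3 h, 6 h and 12 h). The deposited p and FDR values imply ranks, and these gave the genes tested: 21397, 23117 and between 21239 and 21245. Depth per library is unknown, and intervals on ratios of counts cover counting error only.

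The authors' calls are the main result, counted by direction with no test over the list. As alternatives, edgeR 4.0.16 (quasi-likelihood test, R 4.3.3) and DESeq2 1.42.0 were run on the listed genes. A call was kept when p was no larger than the largest listed p of that time, the absolute log2 ratio was at least 1 and the direction was the same. Fits on called genes alone estimate dispersion from those genes. Both tools were also run on simulated counts in which most genes were unchanged. In the deposited tables every gene was called, so that run does not test the calls kept here.

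Members, classes and lists were chosen with earlier results of these data known, and transporters were split into groups by annotation terms after values were seen. Named genes are members listed at 2 or more times, panel genes, and per time and class up to 6 members with the smallest FDR in each direction. Others are marked as added. Names come from RefSeq (assembly ASM3414082v1), which held a gene ID for 49 of the 54 members and a name for 11. No sequences were used here, so the planned search for promoter motifs was not made.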

Additional observations from a re-analysis of the deposited data

Results flagged for a closer look

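In 2 of the 9 members listed at both times the difference between csa and wild type was not the same at 3 h and 6 h by the edgeR test of the interaction. Of all 327 genes listed at both times, 57 (17.4%) passed. Both members were listed in opposite directions, which alone gives a log2 difference of at least 2. The tests and ranges below are therefore not independent of the listing. For the peptide transporter gene LOC_Os01g67630 the log2 ratio was lower at 6 h than at 3 h, by -4.01, and the wild type libraries were above the csa libraries at 6 h and below them at 3 h. Leaving out each library in turn gave differences from -4.31 to -3.77, with edgeR adjusted p from 2.01e-06 to 3.11e-04. For the proline oxidase gene LOC_Os10g40360 the log2 ratio was higher at 6 h by 2.65, and leaving out each library in turn gave 2.37 to 3.09, with edgeR adjusted p from 5.53e-05 to 0.00158.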

How the results depend on the processing

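With edgeR and DESeq2 refits of the listed genes, 62 and 59 of the 63 member entries were kept, and 26 were kept on leaving out every library in turn. Of all entries edgeR kept 95.9% at 3 h and 95.6% at 6 h, and DESeq2 kept 89.6% and 92.6%. Fits without 1 library kept 62.4% to 88.1% of all entries at 3 h and 65.5% to 82.3% at 6 h. With the replicate number as a block, 12 higher and 7 lower members were kept at 3 h and 13 and 28 at 6 h, and 2 members differed between times, so the block moved no count by over 1.5 times. The numbers were not taken to pair the samples. Deviations of same-numbered csa and wild type libraries had correlations of -0.045, 0.224 and 0.244 at 3 h and -0.213, 0.289 and 0.177 at 6 h. Differently numbered libraries were not compared in this way, so these values do not settle whether samples were paired. Leaving out 1 library at a time left 5 to 12 higher and 3 to 7 lower members at 3 h, 9 to 13 higher and 18 to 25 lower at 6 h (18 without csa replicate 3, 19 without wild type replicate 3), and 5 to 6 higher and 15 to 20 lower transporters at 6 h. TMM factors computed on the listed genes moved the median log2 ratio of all entries by -1.24 at 3 h and -0.58 at 6 h, because called genes make up the whole table. They left 1 member higher at 3 h, 7 members higher at 6 h and 4 transporters higher at 6 h, and 5 higher members of 3 h took a negative sign (LOC_Os03g12890, LOC_Os03g31690, LOC_Os04g45950, LOC_Os06g38294 and LOC_Os11g09020). Over all entries 24.7% changed sign at 3 h. At 6 h neither a member nor any other entry changed sign, which a shift of -0.58 could hardly bring about in listed ratios. Since the shift lowers all ratios, higher calls lost under these factors do not test the genes, and lower calls are kept by it. A mean raw count of at least 50 left 7 members higher at 3 h, and at 6 h 4 members and 1 transporter higher. An absolute log2 ratio of at least 1.5 left 4 higher and 1 lower at 3 h, 9 higher and 14 lower at 6 h, and 13 transporters lower at 6 h. An FDR of 0.01 left 7 members higher at 3 h and 3 transporters higher at 6 h. Without members that the term amino acid alone caught, 7 were higher at 3 h, and 4 transporters were higher and 13 lower at 6 h. These counts fall by construction. Keeping entries at the start of chromosome 1 changed no count. None of the 50 named log2 ratios changed sign without scaling or without any 1 library, except that LOC_Os10g08850 had no ratio without wild type replicate 1, which left wild type counts of 0, and scaling moved them by at most 0.11. Leaving out 1 library cannot turn the sign where genotypes do not overlap, as in 18 of 19 members at 3 h and 43 of 44 at 6 h. Factors this near 1 cannot turn a listed ratio either. The unchanged signs were therefore nearly all settled by the listing and the non-overlap.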
